A study of Mus musculus with 12 samples.

Results

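The 9 genes described here are markers used to tell dermal fibroblast lineages apart: Dpp4, Pi16, Dlk1, Crabp1, Fap, Thy1, S100a4, Lrig1 and Ly6a. They were found by symbol among the 35976 genes listed for each of 12 RNA-seq libraries of mouse scars, and all 9 were among the 18853 genes that passed the filter on low counts and were tested. The libraries came from 4 groups of 3 male mice each, aged 8 to 12 weeks: sham (WTSH) and traction (WTTR) groups of Tem1WT/WT mice, and sham (lacZSH) and traction (lacZTR) groups of Tem1lacZ/lacZ mice. In Tem1lacZ/lacZ mice the lacZ reporter takes the place of the only exon of Tem1 (gene symbol Cd248) in every cell, so the deletion is not limited to fibroblasts, and the line was backcrossed to C57BL/6J. All mice had a split wound in the back skin and carried a plastic device from day 6. In the traction groups it was elongated by 1 mm per day to a total of 8 mm, and it stayed in place without elongation in the sham groups. Each library is bulk scar tissue, so every level below mixes fibroblasts with all other cells of the scar, and fewer cells of a type and less RNA per cell cannot be told apart.

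Fibroblasts of mouse skin arise from lineages that settle at different depths. Papillary fibroblasts lie under the epidermis and support hair follicles, reticular fibroblasts build the dense collagen of the lower dermis and give rise to adipocytes, and fascia fibroblasts lie below the skin muscle and move into deep wounds, where they lay down scar matrix. A population around vessels and in interstitial planes that carries Pi16 and Dpp4 is regarded as a progenitor pool of several organs, and activated fibroblasts raise genes of the matrix, of contraction and of matrix breakdown. Among the 9 genes, Dpp4, Lrig1 and Crabp1 mark papillary or upper dermal fibroblasts, Pi16 together with Dpp4 marks the fascia and adventitial population, Dlk1 and Ly6a mark reticular and deeper fibroblasts, and Fap, Thy1 and S100a4 are raised in activated fibroblasts. None of them is limited to fibroblasts: Lrig1 is a stem cell gene of the follicle junctional zone, Thy1 is present on T cells and nerves, S100a4 on many leukocytes, and Ly6a on endothelium and haematopoietic cells.

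Averaged over both genotypes, Dpp4 and Pi16 were lower in scars with traction, to 0.422 times the sham level for Dpp4 and 0.491 times for Pi16. With each of the 12 libraries left out in turn, Dpp4 was still called in 4 fits and Pi16 in 1. The other 7 markers did not pass the edgeR test in any comparison, with Crabp1 nearest to it on the higher side. The 250 bases before the start used in a RefSeq promoter table are shown for Dpp4 and Pi16 because these are the members called lower. Crabp1 is shown because its log2 fold change was positive, although it was not called. The bases are from RefSeq on GRCm38.p6, read 5′ to 3′ on the strand of the gene. Dpp4 lies on the minus strand (chr2:62412232-62412481), and Pi16 (chr17:29318632-29318881) and Crabp1 (chr9:54764498-54764747) on the plus strand. The annotated RefSeq genes of Dpp4 and Pi16, and the GENCODE gene of Pi16, begin upstream of the start used there. Capitals mark matches to the motifs searched.
Dpp4: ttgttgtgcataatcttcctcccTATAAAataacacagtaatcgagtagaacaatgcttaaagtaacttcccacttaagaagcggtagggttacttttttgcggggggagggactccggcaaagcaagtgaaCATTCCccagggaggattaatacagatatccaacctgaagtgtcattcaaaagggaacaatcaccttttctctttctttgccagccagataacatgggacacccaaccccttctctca
Pi16: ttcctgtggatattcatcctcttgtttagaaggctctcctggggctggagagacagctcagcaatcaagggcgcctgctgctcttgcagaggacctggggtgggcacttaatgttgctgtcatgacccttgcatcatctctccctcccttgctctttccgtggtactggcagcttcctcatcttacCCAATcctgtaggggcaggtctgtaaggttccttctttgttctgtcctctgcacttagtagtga
Crabp1: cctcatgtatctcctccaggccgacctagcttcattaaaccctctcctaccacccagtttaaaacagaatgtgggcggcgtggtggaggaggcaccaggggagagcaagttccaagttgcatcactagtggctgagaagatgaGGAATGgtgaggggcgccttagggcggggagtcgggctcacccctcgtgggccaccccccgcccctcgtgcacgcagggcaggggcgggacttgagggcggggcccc

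Both strands of these windows were searched for 7 short motifs: TATAAA (the TATA box), TGANTCA (AP-1), CATTCC (TEAD), TGTGGT (Runx), CCAAT (the CCAAT box), GTCTAGAC (a Smad box) and GGGANTTCC (NF-kB), which do not contain one another. Of the 9 genes, 6 had a promoter in the table, and Fap, Thy1 and Ly6a had none. Dpp4 held TATAAA 227 bases and CATTCC 118 bases before the start, Pi16 held CCAAT at 64 bases, and Crabp1 held CATTCC on the minus strand at 107 bases. Over all 32851 promoters of the table, TATAAA was found in 12.4%, CATTCC in 12.6%, TGTGGT in 14% and CCAAT in 33.8%, so each of these matches is common. TGANTCA, GTCTAGAC and GGGANTTCC, found in 6.75%, 0.167% and 1.43% of promoters, had no match in the windows of the 6 genes. Dpp4 and Pi16 shared none of the motifs.

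The 12 libraries held 41536788 to 64644293 counts, with 767 to 18988 counts on each of the markers other than Dlk1 and 35 to 2933 on Dlk1. Levels are given in CPM, which are counts scaled for library size and TMM factor, and all 4 groups were fitted in 1 model with edgeR's quasi-likelihood test, and p-values were adjusted by the Benjamini-Hochberg method over all genes tested. An adjusted p under 0.05 was taken as a call. Cd248 followed the genotype in all 12 libraries, with 150 ± 38.3 CPM in WTSH and 209 ± 123 CPM in WTTR (SD, n = 3) against 0.122 ± 0.0592 and 0.120 ± 0.124 CPM in lacZSH and lacZTR. Replicate 1 of WTTR stood apart: its summed level of 10 neutrophil markers was 6993 CPM, against 300.2 to 623 CPM in the other libraries of that group, and it held the lowest Dpp4, Fap and Lrig1 and the highest Thy1 of all libraries.

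**Figure D1:**
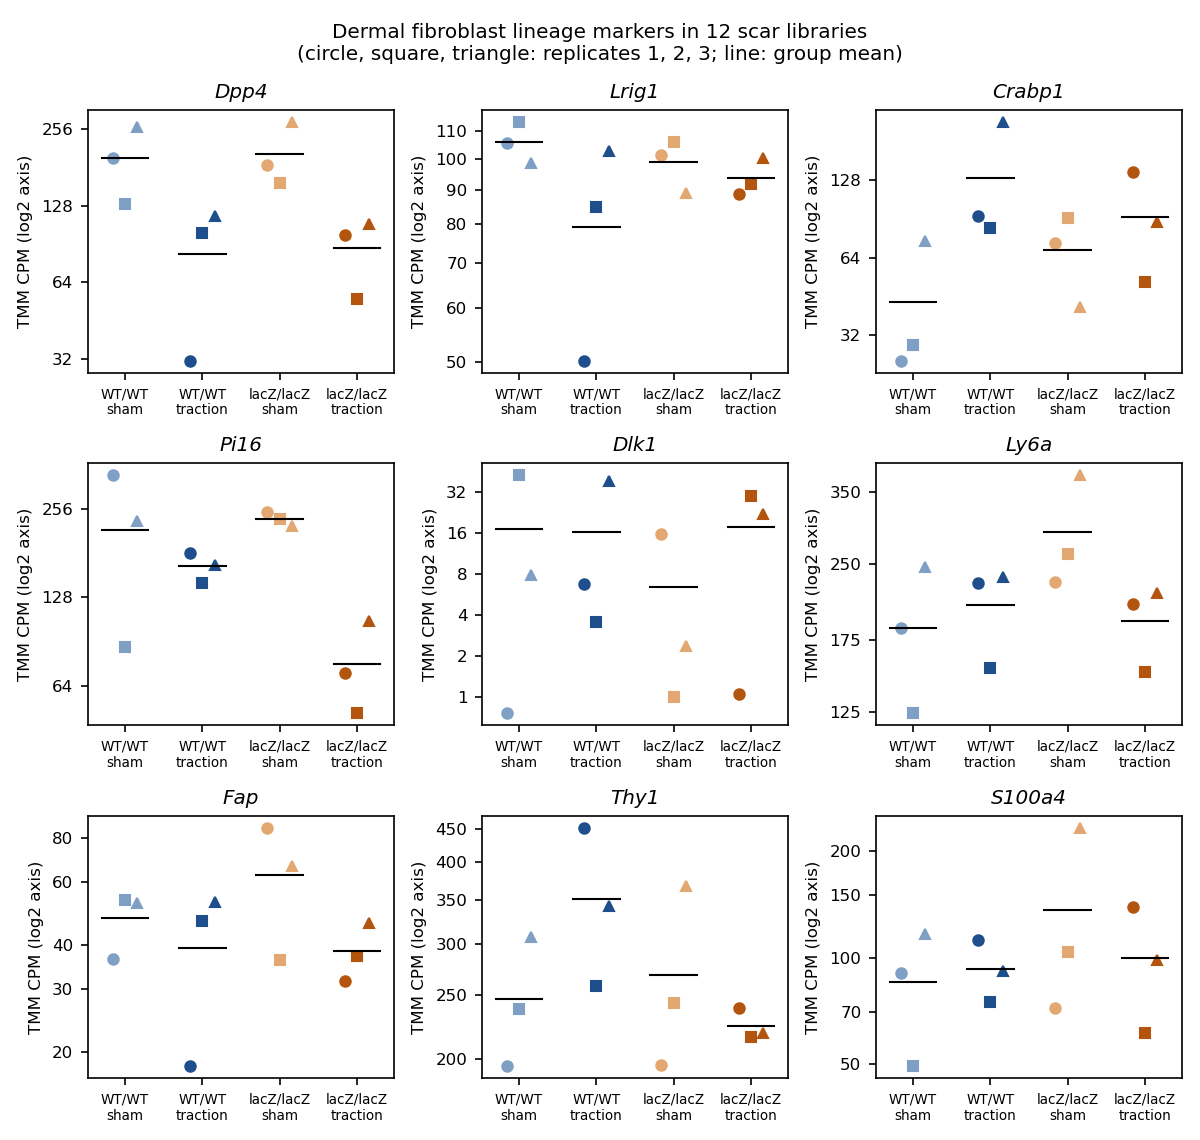
TMM-normalized CPM (log2 axis) of the 9 markers in each of the 12 libraries, by group, with circles, squares and triangles for replicates 1, 2 and 3 and a line at the group mean. Dpp4 is lower in all 6 traction libraries than in any sham library, and the lowest points of Dpp4, Lrig1 and Fap are the same library, replicate 1 of WTTR.

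Per kilobase of exon, the order of the levels over all 12 libraries was Ly6a (181 ± 54.9 CPM per kb, SD, n = 12), S100a4 (177 ± 81.8), Crabp1 (104 ± 64.9), Thy1 (91.1 ± 26.4), Pi16 (27.3 ± 13.4), Dpp4 (22.6 ± 11.9), Lrig1 (16.9 ± 2.91), Fap (8.29 ± 3.07) and Dlk1 (2.55 ± 2.72). Of the neighbours in this order, Thy1 and Pi16, Lrig1 and Fap, and Fap and Dlk1 differed by more than the SD of either gene, and the other neighbours did not. These SDs hold the differences between groups as well as those between mice. The markers also differed in how far they moved from library to library. Lrig1 and Thy1 spanned a 2.26-fold and a 2.32-fold range of CPM, Dpp4 an 8.70-fold range, and Dlk1 a 56.0-fold range that was already present within WTSH.

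Dpp4 encodes dipeptidyl peptidase 4, also known as CD26, a surface enzyme that trims chemokines and incretins. It lies on the minus strand of chromosome 2 (chr2:62330073-62412231, in GENCODE vM21 on GRCm38, as for the genes below). In Tem1WT/WT mice its level was 198, 131 and 263 CPM in the 3 sham scars and 31.4, 100.4 and 116 CPM in the 3 scars with traction. In Tem1lacZ/lacZ mice it was 186, 157 and 273 CPM in the sham scars and 98.4, 54.8 and 108 CPM with traction. Every scar with traction was below every sham scar, across both genotypes.

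Averaged over both genotypes, Dpp4 fell by 1.24 on the log2 scale with traction (standard error 0.32, edgeR's quasi-likelihood test, adjusted p = 0.0413), from 201 to 84.9 CPM. It was 1 of 2 markers called of 9 in this comparison, where 9.73% of all genes tested were called and 3.23% were called lower. Pi16 was the other, and 3 of 9 markers, these and Crabp1, had an unadjusted p under 0.05 in edgeR, against 30.7% of all genes. Dpp4 was also the only 1 of the 9 whose 6 traction and 6 sham libraries did not overlap, a separation found in 1.46% of all genes and, towards lower values with traction, in 0.605%. Without replicate 1 of WTTR the change was -1.04 with an adjusted p of 0.0325. The call was lost on leaving out any 1 of the 3 WTSH libraries, any 1 of the 3 lacZSH libraries, or replicate 2 or 3 of lacZTR, with adjusted p-values between 0.0608 and 0.102 and a log2 fold change between -1.35 and -1.11.

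The size of the Dpp4 change was the same in both genotypes within its error. The log2 fold change was -1.25 in Tem1WT/WT mice (standard error 0.46, adjusted p = 0.0937) and -1.24 in Tem1lacZ/lacZ mice (standard error 0.46, adjusted p = 0.598), and the difference between them was 0.01 with a 95% interval from -1.39 to 1.42. That interval does not show that the effects are alike, since it allows a difference larger than the effect. The genotypes differed by 0.06 in sham scars (95% interval -0.93 to 1.05) and by 0.07 with traction (-0.92 to 1.07). By leaving out single libraries, the sign of both differences changed.

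Dpp4 shares 232 bp of exon with Gm13561, an antisense gene on the opposite strand, and because the strand setting of the counting is not given in the sources used here, reads of that stretch may belong to either gene. Its neighbour Fap, a related dipeptidyl peptidase, lies 88711 bp away on the same strand with Gcg as the only protein-coding gene between them.

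Lrig1, an inhibitor of EGF receptor signalling that marks papillary progenitors in newborn skin and stem cells of the follicle junctional zone, lies on chromosome 6 (chr6:94604529-94700158, minus strand). Its level was 106, 113 and 98.5 CPM in WTSH, 50.2, 84.7 and 103 CPM in WTTR, 101, 106 and 89.2 CPM in lacZSH and 88.8, 91.7 and 100.5 CPM in lacZTR. Of these 12 values, 11 lay between 84.7 and 113 CPM, and the groups overlapped. With traction Lrig1 had a log2 fold change of -0.42 in Tem1WT/WT mice (standard error 0.22, adjusted p = 0.207) and -0.08 in Tem1lacZ/lacZ mice (standard error 0.21, adjusted p = 0.936). The 10 markers of hair follicle and junctional zone summed to 10649 to 16573 CPM in WTSH and 2972 to 5219 CPM in WTTR, with a count for each in every library. The follicle sums overlapped in Tem1lacZ/lacZ mice, at 4915 to 18217 CPM in lacZSH and 5954 to 10909 CPM in lacZTR. Their part in the level of Lrig1 was not tested. Lrig1 shares 144 bp of exon with Slc25a26 on the opposite strand.

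Crabp1 encodes a cytoplasmic binding protein for retinoic acid and is found in upper dermal and dermal papilla fibroblasts. The gene lies on the plus strand of chromosome 9 (chr9:54764748-54773110). It was 25.6, 29.5 and 74.5 CPM in WTSH and 93.2, 83.6 and 215 CPM in WTTR, so that all 3 scars with traction were above all 3 sham scars. In Tem1lacZ/lacZ mice it was 73.2, 91.1 and 41.2 CPM in sham scars and 138, 51.4 and 87.9 CPM with traction, and the groups overlapped.

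The log2 fold change of Crabp1 with traction was 1.60 in Tem1WT/WT mice (standard error 0.54, adjusted p = 0.0761) and 0.43 in Tem1lacZ/lacZ mice (standard error 0.52, adjusted p = 0.830). The difference between these effects was -1.16 (95% interval -2.80 to 0.47, adjusted p = 0.624), so a genotype difference was not shown. Averaged over both genotypes the change was 1.02 with an adjusted p of 0.0978 in edgeR, and DESeq2's Wald test called it, with an adjusted p of 0.0354 for the average and 0.0178 in Tem1WT/WT mice.

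Pi16 encodes a secreted peptidase inhibitor of the CRISP family and marks the adventitial and fascia fibroblasts that also carry Dpp4. It lies on the plus strand of chromosome 17 (chr17:29317680-29330593), where it shares 222 bp of exon with the antisense gene AC162182.1, which is not among the genes listed. Its level was 334, 86.9 and 232 CPM in WTSH and 182, 144 and 165 CPM in WTTR. In Tem1lacZ/lacZ mice it was 251, 236 and 225 CPM in sham scars and 70.8, 51.4 and 106 CPM with traction. The groups of Tem1WT/WT mice overlapped because of replicate 2 of WTSH, at 86.9 CPM, while all 3 lacZTR scars were below all 3 scars of lacZSH and all 3 of WTTR.

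Averaged over both genotypes, Pi16 fell by 1.03 on the log2 scale with traction (standard error 0.28, edgeR's quasi-likelihood test, adjusted p = 0.0462). This call was close to the threshold and was lost on leaving out any 1 library other than replicate 2 of WTSH, with adjusted p-values from 0.0559 to 0.112 and log2 fold changes from -1.18 to -0.80. The log2 fold change was -0.41 in Tem1WT/WT mice (standard error 0.40, adjusted p = 0.505) and -1.64 in Tem1lacZ/lacZ mice (standard error 0.41, adjusted p = 0.598, unadjusted p = 0.00196 in edgeR). The difference between these effects was -1.23 (95% interval -2.46 to 0.01, adjusted p = 0.555). With traction, Pi16 was lower in Tem1lacZ/lacZ than in Tem1WT/WT scars by a log2 fold change of -1.10 (adjusted p = 0.130), and in sham scars the difference was 0.12 (adjusted p = 0.920). None of these within-group differences passed the test.

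**Figure D2:**
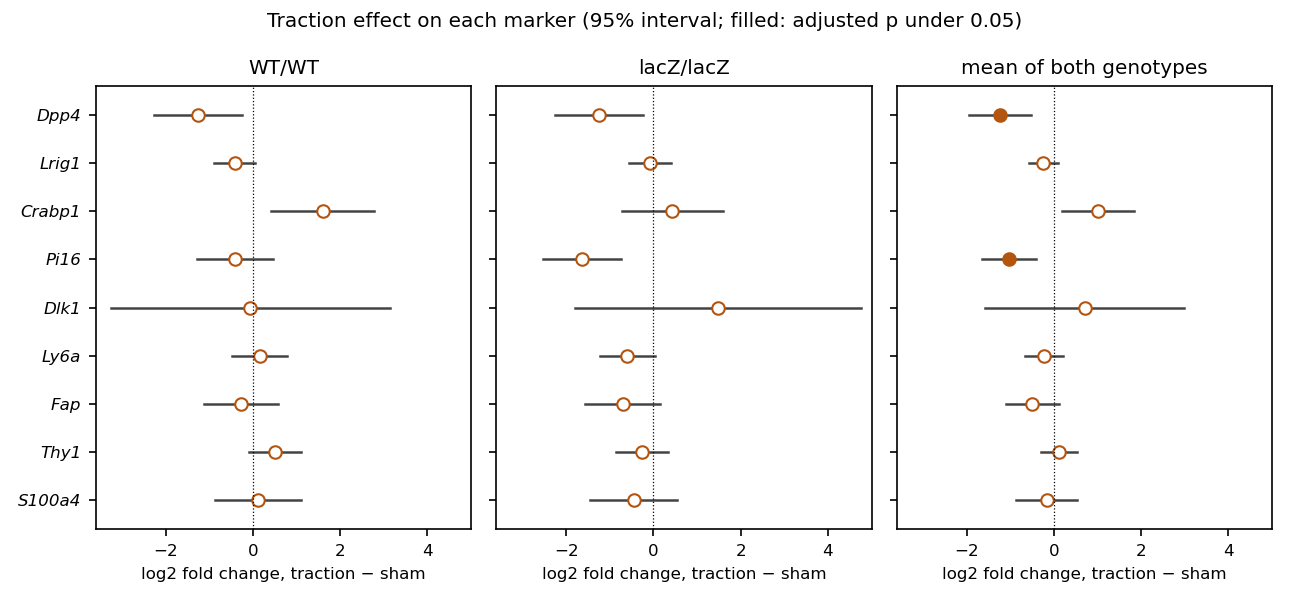
Log2 fold change of each marker with traction against sham (x axis) with its 95% interval from edgeR, in Tem1WT/WT mice, in Tem1lacZ/lacZ mice and averaged over both, with filled points for an adjusted p under 0.05. The filled points are Dpp4 and Pi16 in the average, both left of 0, and the interval of Dlk1 is the widest.

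Dlk1 encodes a noncanonical Notch ligand that holds back adipocyte differentiation and marks preadipocyte and reticular fibroblasts in young skin, and lies on chromosome 12 (chr12:109452823-109463336, plus strand). It was 0.760, 42.6 and 7.86 CPM in WTSH, 6.80, 3.56 and 38.7 CPM in WTTR, 15.9, 0.997 and 2.36 CPM in lacZSH and 1.06, 30.1 and 22.2 CPM in lacZTR. Within a group the highest value was 10.9 to 56.0 times the lowest, and all 4 groups overlapped. The log2 fold changes with traction were -0.06 in Tem1WT/WT and 1.47 in Tem1lacZ/lacZ mice, with standard errors of 1.45 and 1.49, so that changes of several-fold in either direction were not detectable between these groups.

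Ly6a, the surface protein Sca-1, marks deep dermal, fascia and progenitor fibroblasts. It lies on the minus strand of chromosome 15 (chr15:74994877-74998031) beside near-identical relatives of the Ly6 family, and its counts are uncertain to the extent that reads were shared with them. Its level was 185, 124 and 247 CPM in WTSH, 228, 154 and 235 CPM in WTTR, 230.2, 262 and 380 CPM in lacZSH and 207, 150.3 and 218 CPM in lacZTR. All 3 lacZTR scars were below all 3 lacZSH scars, and the Tem1WT/WT groups overlapped. With traction Ly6a had a log2 fold change of -0.60 in Tem1lacZ/lacZ mice (standard error 0.29, adjusted p = 0.622) and 0.15 in Tem1WT/WT mice (adjusted p = 0.751). In sham scars Ly6a was higher in Tem1lacZ/lacZ mice by 0.65 on the log2 scale, which did not pass adjustment in edgeR (unadjusted p = 0.0437, adjusted p = 0.424).

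Fap encodes fibroblast activation protein, a surface protease of activated fibroblasts that cleaves denatured collagen, and lies on the minus strand of chromosome 2 (chr2:62500943-62574075). It was 36.6, 53.6 and 52.4 CPM in WTSH, 18.2, 46.7 and 52.7 CPM in WTTR, 85.1, 36.3 and 66.6 CPM in lacZSH and 31.7, 37.1 and 46.2 CPM in lacZTR. The groups overlapped in both genotypes. Fap had a log2 fold change with traction of -0.28 in Tem1WT/WT mice (adjusted p = 0.660), -0.71 in Tem1lacZ/lacZ mice (adjusted p = 0.645) and -0.49 in the average (standard error 0.27, adjusted p = 0.244). Without replicate 1 of WTTR the change in Tem1WT/WT mice was 0.04.

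Thy1 encodes the surface glycoprotein CD90, a general marker of dermal fibroblasts that is also used for the activated state, on the plus strand of chromosome 9 (chr9:44043384-44048579). It was 195, 239 and 307 CPM in WTSH, 452, 259 and 343 CPM in WTTR, 196, 244 and 368 CPM in lacZSH and 239, 216 and 219 CPM in lacZTR. All 3 lacZTR scars were below all 3 WTTR scars, and the sham groups overlapped. The log2 fold change between genotypes with traction was -0.64 (standard error 0.27, adjusted p = 0.163), and the traction effect was 0.51 in Tem1WT/WT mice (adjusted p = 0.218) and -0.26 in Tem1lacZ/lacZ mice (adjusted p = 0.798). The difference between the traction effects was -0.77 (95% interval -1.60 to 0.06, adjusted p = 0.564). Without replicate 1 of WTTR, the library with the highest Thy1, the log2 fold change between genotypes with traction was -0.39. The traction effect in Tem1WT/WT mice was then 0.27. The T lymphocyte markers found among the genes listed, 8 of 10, summed to 14.2 to 107 CPM in WTTR and 26.2 to 36.1 CPM in lacZTR, each with a count in every library, and their part in Thy1 was not tested.

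S100a4, a calcium-binding protein also called fibroblast-specific protein 1 and present in macrophages and other leukocytes, lies on the plus strand of chromosome 3 (chr3:90603771-90606045). It was 90.8, 49.3 and 117 CPM in WTSH, 112, 75.0 and 91.9 CPM in WTTR, 72.1, 104 and 233 CPM in lacZSH and 139, 61.4 and 98.4 CPM in lacZTR. All groups overlapped, and replicate 3 of lacZSH was the highest. S100a4 had a log2 fold change with traction of 0.12 in Tem1WT/WT mice (adjusted p = 0.882) and -0.45 in Tem1lacZ/lacZ mice (adjusted p = 0.790), with a standard error of 0.45 for each. S100a4 shares 302 bp of exon with Gm42674 on the same strand, which is not among the genes listed.

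Within a single genotype or treatment none of the 9 markers was called by edgeR. Traction against sham in Tem1WT/WT mice called 0 of 9 against 9.15% of all genes, with 2 of 9 at an unadjusted p under 0.05 (31.4% of all genes) and 2 of 9 with no overlap (35.7%). DESeq2's Wald test called 2 there, Dpp4 and Crabp1, and limma-voom 0. Over all genes DESeq2 called 3996 of 28443 and limma-voom 748 of 18853 in this comparison. In Tem1lacZ/lacZ mice traction called 0 of 9 and 0% of all genes, with 2 of 9 at an unadjusted p under 0.05 (8.12%) and 3 of 9 with no overlap (12.9%), which were Dpp4, Pi16 and Ly6a, all lower with traction (6.16% of all genes). The traction effects of the genotypes share no libraries, while each shares its groups with the genotype comparisons.

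Between genotypes, 0 of 9 markers were called with traction (0.106% of all genes) and 0 of 9 in sham scars (0.0106%), and 2 and 1 of 9 had an unadjusted p under 0.05 in edgeR, against 26.1% and 11.7% of all genes. Pi16 and Thy1 were the 2 with no overlap between genotypes with traction (26.6% of all genes, 13.7% towards lower values), and in sham scars 0 of 9 had none (26.8%). Averaged over both treatments the genotype changed 0 of 9 (0.053% of all genes), also at an unadjusted p under 0.05 (28.4%). The interaction called 0 of 9 and 0% of all genes, with 0 of 9 at an unadjusted p under 0.05 in edgeR (8.91%). DESeq2 and limma-voom called 0 of 9 in each of these 4 comparisons and in traction against sham in Tem1lacZ/lacZ mice. Over all genes their totals differed from edgeR's. DESeq2 called 2222 of 28443 genes between genotypes with traction, 20 in sham scars and 2854 averaged over both treatments. It called 68 for the interaction and 22 for traction in Tem1lacZ/lacZ mice. In the same order limma-voom called 16, 1, 578, 0 and 435 of 18853 genes.

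The scars also held other fibroblast genes, listed by population from well-known markers. These lists were chosen with earlier results of these data known, so they are not independent of the data and their counts are a description. Most genes on a general dermal fibroblast list were higher with traction in the comparison averaged over both genotypes. On this list 5 of 12 were called higher and 0 lower, 11 of 12 had a positive log2 fold change, and the median was 0.80, against -0.02 over all genes. In this comparison 6.5% of all genes were called higher and 3.23% lower, which is the background for this and the following lists. Pdgfra, the platelet-derived growth factor receptor of fibroblasts, rose by 1.12 on the log2 scale (standard error 0.23, adjusted p = 0.0254), from 197 to 451 CPM, with all 6 traction libraries above all 6 sham libraries (0.859% of all genes). Col1a1, a chain of type I collagen, rose by 1.56 (adjusted p = 0.0295), the transcription factor gene En1 by 1.63 (adjusted p = 0.0216) and Fbln1, a matrix fibulin, by 0.75 (adjusted p = 0.0217). Dpp4 and Pi16 moved the opposite way in the same libraries. The number of calls in this comparison rests on single libraries: without replicate 1 of WTSH, replicate 2 of lacZSH or replicate 2 of lacZTR, 0 genes of this and the following lists were called, and 15, 0 and 17 of all genes tested.

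Of 14 further genes of the fascia and Pi16+ adventitial population, 2 were called lower and 0 higher in the average, 12 of 14 had a negative log2 fold change, and the median was -0.69. In Tem1lacZ/lacZ mice 14 of 14 were negative, with a median of -0.99 against -0.01 over all genes, and 0 were called in edgeR, with 6 at an unadjusted p under 0.05. In Tem1WT/WT mice 10 of 14 were negative. Dact2, a modulator of Wnt and TGF-β signalling, fell by 1.58 (standard error 0.25, adjusted p = 0.0203), from 12.4 to 4.07 CPM with no overlap of the 6 and 6 libraries, and Cd55, a complement regulator, fell by 1.06 (adjusted p = 0.0434, and 0.0508 in edgeR without replicate 1 of WTTR). Ly6c1 had a log2 fold change of -0.71 (adjusted p = 0.0646) and Wnt2 of -1.85 (adjusted p = 0.0688). DESeq2 called 7 lower and limma-voom 5, and 0 to 3 were called in edgeR with 1 library left out.

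Among 12 genes of activated fibroblasts 3 were called higher and 0 lower in the average, 10 of 12 were positive, and the median was 0.73. These include Tagln, a smooth muscle gene that was at only 0.0714 to 0.747 CPM in the 12 libraries, too low to read a direction from. Acta2, a contractile gene on the same list, was at 144 to 743 CPM. Whether the low Tagln counts reflect the tissue or the annotation used for counting was not tested. Tnc (tenascin C) rose by 2.07 (standard error 0.52, adjusted p = 0.0374), the metalloprotease gene Adam12 by 1.43 (adjusted p = 0.0374) and the collagen gene Col5a2 by 0.95 (adjusted p = 0.0413). The collagen receptor gene Itga11 had a log2 fold change of 1.25 (adjusted p = 0.0624), and was called without replicate 1 of WTTR (1.45, adjusted p = 0.0350 in edgeR). In Tem1WT/WT mice 11 of the 11 genes other than Tagln were positive with a median of 1.21, and in Tem1lacZ/lacZ mice 8 of 11 with a median of 0.33. Tnc was 7503 CPM in replicate 1 of WTTR and 1049 and 2411 CPM in the other two, and without replicate 1 its log2 fold change in the average was 1.53 (adjusted p = 0.0461 in edgeR). The members Fap, Thy1 and S100a4, which mark the same state, had log2 fold changes of -0.49, 0.12 and -0.17 in the average and were not called.

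Of 12 papillary genes 2 were called higher and 0 lower in the average, and 6 of 12 were positive with a median of 0.18. Col18a1, the precursor of endostatin, rose by 1.07 (adjusted p = 0.0217) and Ntn1, the guidance cue netrin 1, by 0.59 (adjusted p = 0.0413). Col23a1 had a log2 fold change of 1.38 (adjusted p = 0.0585) and Entpd1, also an endothelial and leukocyte gene, of 1.21 (adjusted p = 0.0693). Both values rest largely on replicate 1 of WTTR, where Col23a1 was 165 CPM against 26.7 and 33.9 CPM in the other two and Entpd1 831 CPM against 149 and 174 CPM. Without it they were 0.73 (adjusted p = 0.0510 in edgeR) and 0.59 (adjusted p = 0.0543), and Ntn1 was no longer called (0.60, adjusted p = 0.0525). The list's median was -0.26 in Tem1WT/WT mice, with 7 of 12 negative, and 0.46 in Tem1lacZ/lacZ mice, with 9 of 12 positive. This difference between genotypes was not tested for the list.

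Of 10 reticular genes 0 were called in edgeR, 4 of which had an unadjusted p under 0.05: Sfrp2 with a log2 fold change of 1.47 (adjusted p = 0.103), Cilp of -0.73 (adjusted p = 0.107), Wisp2 of 0.69 (adjusted p = 0.129) and Tgm2 of 1.08 (adjusted p = 0.146). DESeq2 and limma-voom called 1 each. Tgm2 was 786 CPM in replicate 1 of WTTR and 128 and 94.4 CPM in the other two, and without replicate 1 its log2 fold change was 0.29 (adjusted p = 0.385 in edgeR). Wisp2 was then called, at 0.87 (adjusted p = 0.0399). Of 11 genes of dermal papilla and sheath 2 were called higher and 1 lower: Sox18, also an endothelial transcription factor gene, rose by 1.31 (adjusted p = 0.0203), Wnt5a by 0.89 (adjusted p = 0.0490), and Crym fell by 1.52 (adjusted p = 0.0460). Rspo3, a Wnt agonist, had a log2 fold change of 0.63 (adjusted p = 0.144). Without replicate 1 of WTTR Wnt5a (adjusted p = 0.0669 in edgeR) and Crym (adjusted p = 0.0680) were no longer called. The log2 fold changes of the dermal papilla genes were negative for 7 of 11 in Tem1WT/WT mice, and positive for 8 of 11 in Tem1lacZ/lacZ mice with a median of 0.75. The list's difference between genotypes was not tested.

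**Figure D3:**
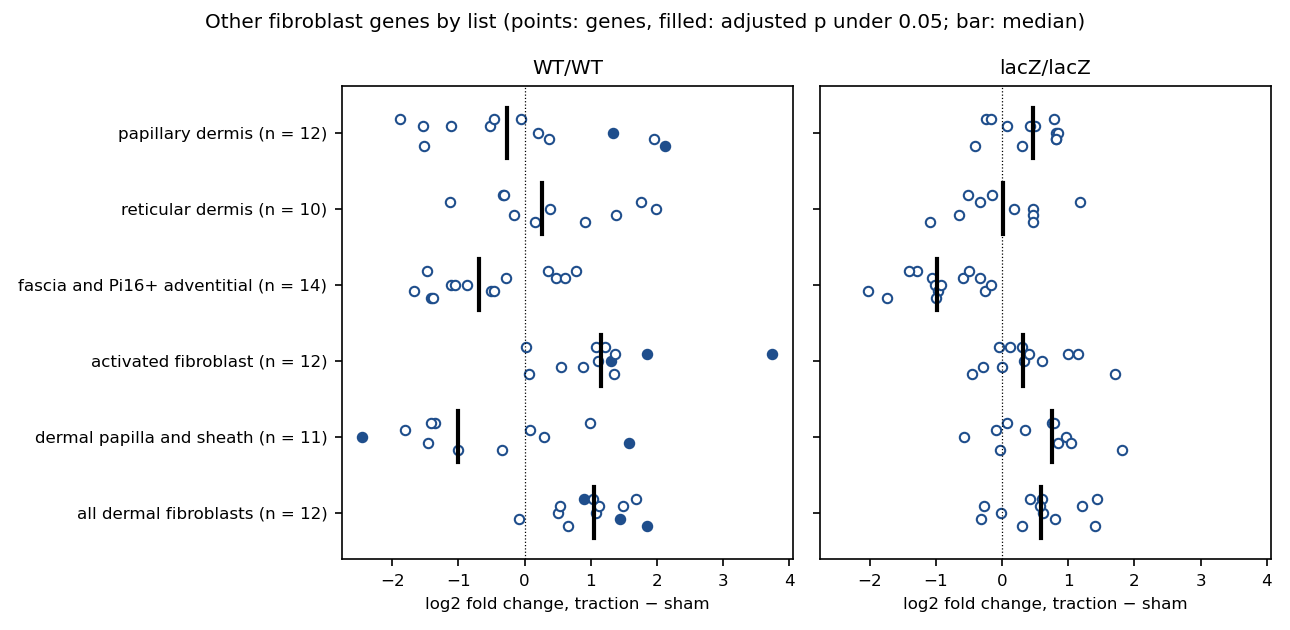
Log2 fold change with traction (x axis) of each gene of 6 fibroblast lists in Tem1WT/WT and in Tem1lacZ/lacZ mice, with a bar at the median and filled points for an adjusted p under 0.05. The fascia and Pi16+ adventitial genes have a median of -0.69 and -0.99, while the general list, labelled all dermal fibroblasts, has a median of 1.06 and 0.59.

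The markers were also set against the mean log2 CPM of the 12 genes on the general dermal fibroblast list in the same library. These include Col1a1 and En1, which were called higher with traction in the average. A lower relative level can therefore reflect a rise of the reference genes. On this scale Dpp4 was -1.28 ± 0.38 in WTSH and -3.65 ± 0.81 in WTTR (SD, n = 3), and -0.81 ± 0.29 in lacZSH and -2.59 ± 0.82 in lacZTR. All 6 traction scars were below all 6 sham scars, as they were for 1.37% of all genes. Within Tem1WT/WT mice the relative levels of Dpp4, Fap and Lrig1 were lower with traction with no overlap, but so were those of 65.5% of all genes, since the reference genes themselves were higher. Within Tem1lacZ/lacZ mice, where this held for 11.8% of all genes, Dpp4, Pi16 and Fap were lower with no overlap. Pi16 there was -0.56 ± 0.34 in sham scars and -2.79 ± 0.67 with traction, and Fap was -2.57 ± 0.31 and -3.73 ± 0.28.

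**Figure D4:**
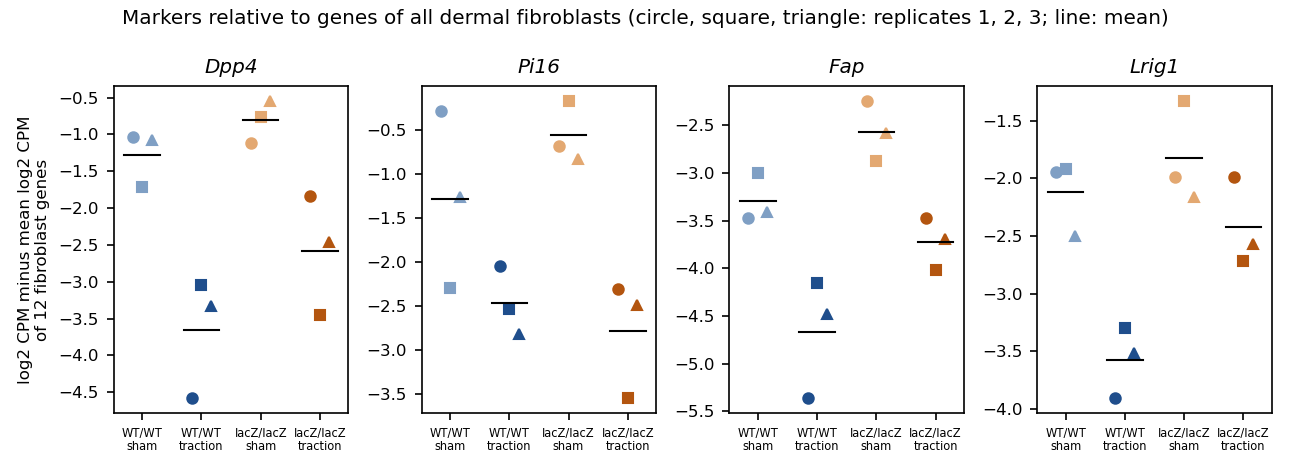
Log2 CPM of Dpp4, Pi16, Fap and Lrig1 minus the mean log2 CPM of the 12 genes on the general dermal fibroblast list (y axis) in each library, by group, with a line at the group mean. For Dpp4 the highest traction library is at -1.84 and the lowest sham library at -1.72.

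Markers of other cell types moved with traction as well. The 10 adipocyte markers had 10 of 10 negative log2 fold changes in the average, with a median of -1.19, 0 called by edgeR and 1 at an unadjusted p under 0.05, and summed to 1007 to 1421 CPM in WTSH, 177 to 1162 CPM in WTTR, 366 to 5675 CPM in lacZSH and 225 to 2912 CPM in lacZTR. The 10 skeletal muscle markers were also 10 of 10 negative with a median of -1.73, 0 called and 7 at an unadjusted p under 0.05, and summed to 907 to 10413 CPM in WTSH and 224 to 1544 CPM in WTTR, and to 1034 to 2652 CPM in lacZSH and 1120 to 2146 CPM in lacZTR. Of 10 endothelial markers 9 were called higher, and their sum was 349 to 511 CPM in WTSH and 880 to 1042 CPM in WTTR. The endothelial sums overlapped in Tem1lacZ/lacZ mice, at 291 to 489 CPM in lacZSH and 431 to 697 CPM in lacZTR. The neutrophil markers summed to 63.0 to 98.1 CPM in WTSH, 300.2 to 6993 CPM in WTTR, 173 to 191 CPM in lacZSH and 251 to 534 CPM in lacZTR, and only Ly6g, Camp and Ltf were at 0 counts in any library. Among the other marker lists tested in the average, 5 of 9 neutrophil, 1 of 10 macrophage, 1 of 8 pericyte and 1 of 8 nerve and Schwann markers were called higher, 2 of 10 follicle markers were called lower, and 0 of 10 keratinocyte, 0 of 8 T lymphocyte and 0 of 7 muscle regeneration markers were called in edgeR (2, 0 and 0 at an unadjusted p under 0.05). Apart from that 1 call, the nerve and Schwann markers did not rise as a list, with 3 of 8 positive and a median log2 fold change of -0.22. The part of all these cell types in the levels of Dpp4, Pi16 and the other markers was not tested.

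Over the 12 libraries the markers varied together in part. As a description of libraries that share groups, depth and cell makeup, Pearson's r of log2 CPM was 0.87 between S100a4 and Ly6a, 0.74 between Dpp4 and Fap, 0.70 between Dpp4 and Lrig1 and -0.67 between Thy1 and Lrig1. Dpp4 and Pi16, the markers that fell with traction, had an r of 0.54. Replicate 1 of WTTR held the lowest Dpp4, Fap and Lrig1 and the highest Thy1, and ranks give single outlying libraries less weight. By rank (Spearman's rho) the values were 0.70 for S100a4 and Ly6a, 0.59 for Dpp4 and Fap and 0.48 for Dpp4 and Lrig1. They were -0.47 for Thy1 and Lrig1 and 0.69 for Dpp4 and Pi16. All these values include the differences between groups. For deviations from the group means Pearson's r was 0.32 for Dpp4 and Pi16 and 0.89 for S100a4 and Ly6a. It was 0.67 for Dpp4 and Fap, 0.61 for Dpp4 and Lrig1 and -0.56 for Thy1 and Lrig1.

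**Figure D5:**
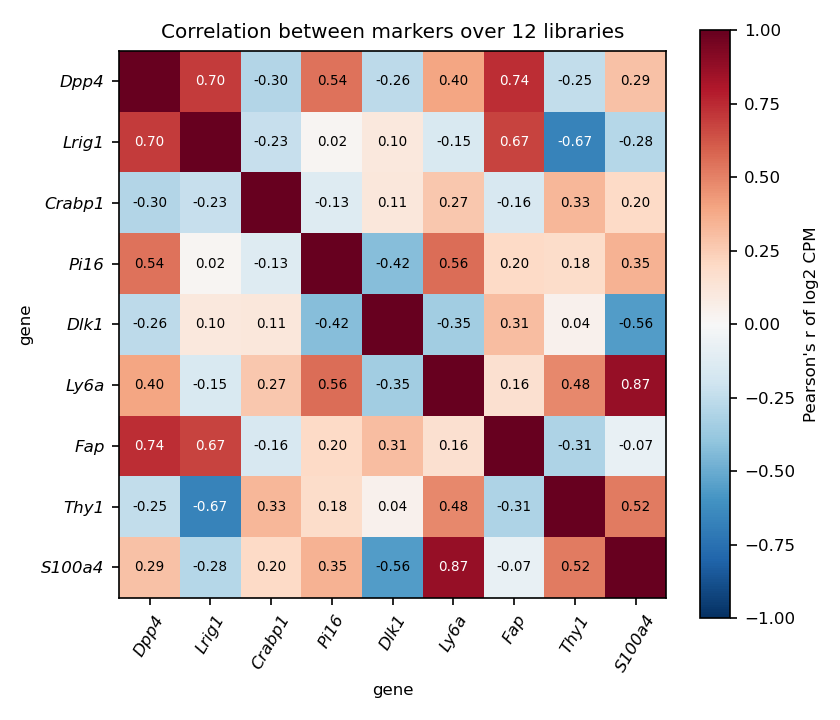
Pearson's r of log2 CPM between each pair of markers over 12 libraries, from blue (-1) to red (1). The highest pair is S100a4 and Ly6a at 0.87, and Thy1 and Lrig1 are the most negative at -0.67.

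The genes most like each marker across the 12 libraries were sought among the 13645 genes whose mean log2 CPM reached 1. Dpp4 was nearest to Sema3c (r = 0.98), Qpct (0.96) and Wnt2 (0.96). Of these, Sema3c and Wnt2 are on the list of fascia and adventitial genes, which was chosen with earlier results of these data known. Pi16 was nearest to Ccl11 (0.86), Ugp2 (0.85) and Pla1a (0.82), and Fap to Dpt (0.93), Klhl13 (0.92) and Colgalt2 (0.91). Lrig1 was nearest to Nckap5 (0.96), Fam198a (0.96) and Glrb (0.95), and Crabp1 to Spg21 (0.92), LOC102633627 (0.90) and Svbp (0.90). Lrig1 was at 50.2 CPM in replicate 1 of WTTR and at 84.7 to 113 CPM in all other libraries, so that library weighs heavily in its r values.

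S100a4 was nearest to Ly6a (0.87), Anxa2 (0.87) and Bag1 (0.86), and Ly6a to S100a13 (0.89), Tmsb4x (0.88) and S100a10 (0.87). Thy1 was nearest to Il1rl1 (0.91), Tagln2 (0.89) and Rhoa (0.86), and Dlk1 to Cspg4 (0.84), Rcor1 (0.83) and Thoc3 (0.83). Dpp4 and Lrig1 each had 17 genes with an r over 0.9, while Pi16, Dlk1, S100a4 and Ly6a had 0. Replicate 1 of WTTR was the lowest library for both Dpp4 and Lrig1, and how far these counts rest on it was not tested.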

How the data were processed

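Bulk RNA from the scars of 12 mice was sequenced by the authors as stranded poly(A) libraries (TruSeq, 150-bp paired-end reads). Per the paper and the submitters' processing notes, reads were trimmed with fastp 0.20.0, aligned to GRCm38 with HISAT2 2.1.0 and counted with featureCounts 2.0.0. The deposited values are raw counts per gene. The annotation, strand setting and handling of multi-mapping reads are not given in the sources used here. Genes were filtered with filterByExpr by group, scaled by TMM and tested two-sided with edgeR 4.0.16 (robust quasi-likelihood, 8 residual degrees of freedom, R 4.3.3), with Benjamini-Hochberg adjustment over 18853 genes. Standard errors follow from the fitted model, and correlations used log2 CPM with a prior count of 2. Alternatives were DESeq2 1.42.0, limma 3.58.1 (voom with sample weights), other scalings and filters, a replicate block and leaving out each library. Tests were checked on simulated data for traction in Tem1WT/WT mice only, with changes larger than those of Dpp4 and Pi16. The averaged comparison was not simulated. Exon lengths and positions are from GENCODE vM21. Figures used Python 3.11.15 and matplotlib 3.10.9.

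The members and gene lists were chosen with earlier results of these data known. Named genes are the 9 members, Cd248, the 3 genes most like each member and, of each fibroblast list, up to 4 genes with the lowest p in the averaged comparison. Library totals were 41536788 to 64644293 and differed between all 12 libraries. No pair of libraries within a group was a copy, and pairs from different groups were not compared in this way. T lymphocyte, macrophage, neutrophil, endothelial, keratinocyte, follicle, adipocyte, muscle, muscle regeneration, nerve and pericyte markers were also summed.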

Additional observations from a re-analysis of the deposited data

How the results depend on the processing

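Of 1296 alternative values of the members' log2 fold changes, 1201 kept their direction and their side of the threshold, 22 kept the direction and lost the call, 3 gained it and 70 changed sign, 56 of these with 1 library left out. The negative log2 fold changes of Dpp4 and Pi16 averaged over both genotypes held under all 20 alternatives, but Dpp4 was called under 11 of them and Pi16 under 7. Members called in that comparison numbered 2, against 0 with all genes with a count (more genes tested), 1 in limma-voom (Dpp4), 3 in DESeq2 (Dpp4, Pi16 and Crabp1) and 0 to 1 with 1 library left out. In traction against sham in Tem1WT/WT mice DESeq2 called 2 members in place of 0, and 3996 of 28443 genes over all. The numbers of members called in the other comparisons were 0 under every alternative. Dpp4 had an adjusted p of 0.0560 and Pi16 of 0.0607 in edgeR with all genes with a count.

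For the lists in the averaged comparison, whose alternatives were added after seeing the data, DESeq2 called 4 papillary, 1 reticular, 7 fascia, 5 activated and 8 general fibroblast genes, and limma-voom 3 papillary (1 of them lower), 1 reticular, 5 fascia, 5 activated, 2 dermal papilla and 8 general genes. Upper quartile scaling called 1 papillary, 2 activated and 2 dermal papilla genes, and testing all genes with a count called 1 fascia, 1 activated and 1 dermal papilla gene. With 1 library left out the papillary count ranged from 0 to 4, the reticular from 0 to 1, the fascia from 0 to 3, the activated from 0 to 7, the dermal papilla from 0 to 3 and the general from 0 to 9. Over all genes the averaged comparison called 1835, against 1198 with all genes with a count, 3777 in DESeq2 and 3881 in limma-voom, and 0 to 3422 with 1 library left out. Under upper quartile scaling 51.2% of the calls were higher with traction, against 66.8% in TMM scaling, and the median log2 fold change of all genes in Tem1WT/WT mice was -0.12 against -0.01. Only the 6 libraries of the groups compared gave 0 calls over all genes in traction in Tem1WT/WT mice.

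Same-numbered libraries came from different mice, and the labels do not say whether a number stands for a batch. Deviations from the group means correlated over 0.1 in 8 of 18 same-numbered pairs and in 2 of 36 other pairs. The median correlations were 0.089 and -0.019, and 9 of 12 libraries were closest to their own number. Same-numbered pairs ranged from -0.32 to 0.25 and other pairs from -0.40 to 0.37. The highest correlation was between lacZSH replicate 1 and lacZTR replicate 3, whose numbers differ. A component shared by number was not tested, and the main model had no block for it. With the replicate block Dpp4 (adjusted p = 0.0356 in edgeR) and Pi16 (adjusted p = 0.0404) were called in the average, 6 fascia genes in place of 2, 2 activated genes in place of 3 and 1 dermal papilla gene in place of 3 were called, and the log2 fold change of Dlk1 became 0.39 for traction in Tem1WT/WT mice, -0.24 between genotypes with traction and -0.17 for the interaction, and that of Fap 0.0064 between genotypes with traction. The block changed no call of a member and no count of papillary, reticular or general genes called.

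Small differences changed sign with other settings, and the cause was not tested. Under upper quartile scaling S100a4 was -0.0011 for traction in Tem1WT/WT mice, and between genotypes with traction Fap was 0.086 and Ly6a 0.035. In limma-voom Lrig1 was 0.018 for traction in Tem1lacZ/lacZ mice, Dpp4 -0.011, Fap 0.0084 and Ly6a 0.057 between genotypes with traction, Dpp4 -0.27 for the interaction, Thy1 -0.067 for traction averaged over both genotypes and Crabp1 -0.042 for genotype averaged over both treatments. With 1 library left out the log2 fold change of several members crossed 0. For traction in Tem1WT/WT mice it ranged for Pi16 from -0.77 to 0.037, for Dlk1 from -1.72 to 1.93, for S100a4 from -0.14 to 0.42, for Ly6a from -0.048 to 0.43 and for Fap from -0.55 to 0.045. For traction in Tem1lacZ/lacZ mice it ranged for Lrig1 from -0.14 to 0.0049, for Thy1 from -0.41 to 0.060 and for S100a4 from -0.72 to 0.20. Between genotypes with traction it ranged for Dpp4 from -0.28 to 0.41, for Dlk1 from -0.49 to 1.80, for Ly6a from -0.28 to 0.051, for Fap from -0.34 to 0.26, for S100a4 from -0.18 to 0.36 and for Crabp1 from -0.86 to 0.066. Between genotypes in sham scars it ranged for Thy1 from -0.18 to 0.32, for Dpp4 from -0.21 to 0.34, for Pi16 from -0.23 to 0.58 and for Dlk1 from -3.37 to 0.57. For the interaction it ranged for Dlk1 from -0.45 to 3.54, for Dpp4 from -0.33 to 0.37 and for S100a4 from -0.88 to 0.090. For traction averaged over both genotypes it ranged for Dlk1 from -0.10 to 1.71 and for S100a4 from -0.31 to 0.16. For genotype averaged over both treatments it ranged for Crabp1 from -0.11 to 0.41, for Dpp4 from -0.12 to 0.23, for Dlk1 from -1.60 to 0.34 and for Lrig1 from -0.042 to 0.18. Where 1 library was left out, 1 group kept 2 libraries. The variation between mice (biological coefficient of variation) was 34.2% over all genes and 39.2% for Dpp4. With 3 mice in each group, the change of Dpp4 within 1 genotype did not pass the adjusted threshold in edgeR. In Tem1lacZ/lacZ mice edgeR called 0 of all genes for traction.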
